A study of Homo sapiens with 6 samples.

Results

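The T cell antigen receptor and its partners were followed through 10 human genes: the CD3 chains CD3D, CD3E, CD3G and CD247, the receptor constant genes TRAC, TRBC1 and TRBC2, the kinase LCK, the adhesion receptor CD2, and CD1E. They were chosen by name, as every human transcript that GENCODE assigns to them, and they made up 10 of the 12472 human genes and 40 of the 46484 human transcripts in the series. The antigen receptor is a pair of chains, usually alpha and beta, each built from a variable segment spliced to a constant region. It cannot signal by itself. The CD3 chains carry the signal into the cell, where LCK phosphorylates them, and CD2 helps the cell adhere to its target. CD1E belongs to a family of lipid-presenting molecules that immature T cells of the thymus express.

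The series measured single-cell RNA on nanopore instruments in mixtures of a human and a mouse cell line, with 1 library per group and no replicates. Every sample was labelled as the myeloma lines JJN3 (human) and 5TGMG1 (mouse, spelled 5TGM1 in the study's methods), with no treatment of the cells, and the group labels differed in the capture system, the number of PCR cycles and the number of cells. Drop-seq, which traps cells with barcoded beads in droplets, was run with 25 PCR cycles (1000 cells in the label), with 30 and with 35 (500 cells each). The 10X Chromium system was run with 30 and 35 (2000 cells each). A further Drop-seq sample, with a homotrimer template-switch oligo, had read numbers only and was not used here. Barcodes were ranked by total count and kept up to the labelled cell number; those with at least 90% human counts were called human cells and those with at most 10% mouse cells. Drop-seq gave 251 human and 590 mouse cells with 25 cycles, 166 and 291 with 30, and 165 and 309 with 35. The 10X libraries gave 1006 and 806 with 30 cycles, and 911 and 881 with 35. Per the study's methods human cells were the smaller part of the Drop-seq mixture and equal to mouse cells in that for 10X. A count is a unique molecular identifier (UMI) stored for a transcript in a barcode, and the median human cell held between 118 and 352 counts. The tables start at a value of 1 for Drop-seq with 25 cycles, of 3 for both later Drop-seq libraries and of 2 for 10X, so a lower count is missing there and not a true 0. With 1 library per group no difference was tested, and all intervals are 95% intervals that cover counting error only.

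The human cells of the Drop-seq libraries went against their label. Plasma cell genes, which a myeloma line should express, were stored for 2, 1 and 1 of the 14 listed genes at 25, 30 and 35 cycles, and the 11 immunoglobulin genes had no stored count in any Drop-seq barcode. In 10X, 14 of 14 plasma cell genes were stored at both cycle numbers, and an immunoglobulin count was found in 76.2% and 97.1% of human cells. The study's methods name JJN3 for the single-cell work, while a legend for its 10X cells and the cell culture section name Jurkat, a T cell leukaemia line, so the human cells are called here only by their label. The libraries also shared barcodes: 454 of the cell barcodes of the 25-cycle and the 30-cycle Drop-seq libraries were the same, as were 446 of the 30-cycle and 35-cycle ones and 1541 of the 10X pair, while a Drop-seq and a 10X library shared at most 4. The 3 Drop-seq libraries are therefore not separate sets of cells.

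Counts of the T cell genes were present in each of the 3 Drop-seq libraries but in neither 10X library. At 25 cycles 53 of 251 human cells held at least 1 of the 10 genes, a share of 21.1% (exact interval 16.2% to 26.7%), at 30 cycles 24 of 166 (14.5%, 9.49% to 20.7%), and at 35 cycles 29 of 165 (17.6%, 12.1% to 24.3%). Their summed level in human cells, as counts per 1000000 human counts (CPM), was 2777 CPM at 25 cycles, 3425 at 30 cycles and 3080.2 at 35 cycles. In 10X no transcript of the 10 genes was listed for any barcode, although 1006 and 911 human cells were examined. The Drop-seq shares do not share a scale, because leaving out values below 3, as the other 2 tables do, took the share of the same 251 cells at 25 cycles to 8.76%.

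**Figure D1:**
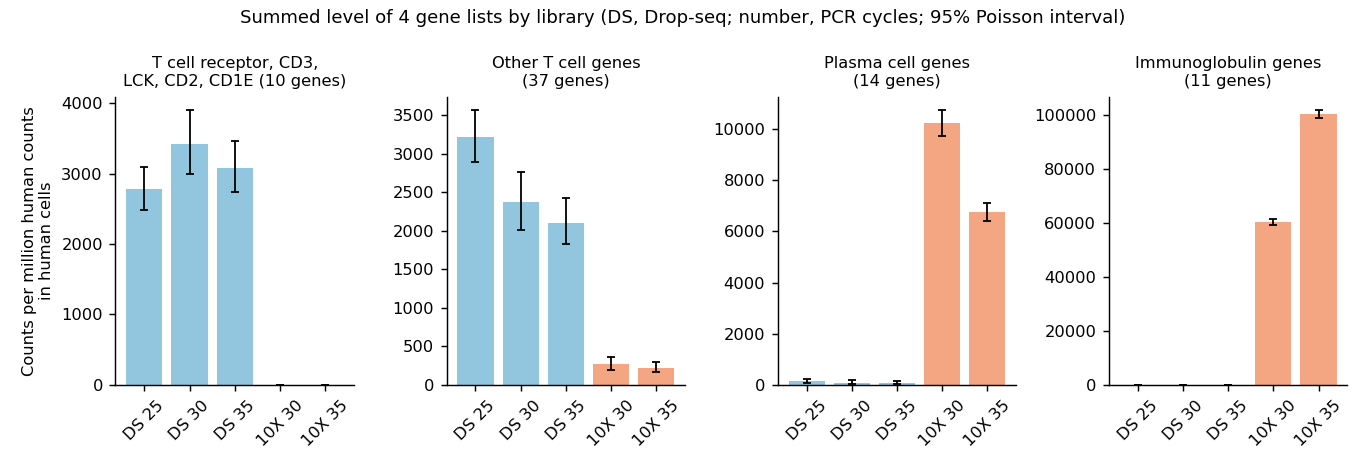
Summed level of 4 gene lists in human cells, in CPM of the human counts, in the Drop-seq libraries (DS) and the 10X libraries at the PCR cycles given; bars show 1 library each, whiskers the 95% Poisson interval, and none is drawn at 0. The T cell lists stand at 2107 CPM or more in Drop-seq and at 271.7 CPM or less in 10X, while the plasma cell and immunoglobulin lists stand at 6743 CPM or more in 10X and at 139 CPM or less in Drop-seq. A large part of the Drop-seq level of the longer T cell list comes from CD99 and PTPRC.

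Mouse cells gave the background, since they should lack human transcripts. In the 25-cycle library 37 of 590 mouse cells held a human T cell gene (6.27%, 4.45% to 8.54%), at a median depth of 282.5 counts against 271 in human cells. When each cell was thinned to 200 counts, the shares were 19.1% of 173 human cells and 2.99% of 402 mouse cells, with 78 and 188 shallower cells left out. At 30 and 35 cycles only 1 of 291 and 3 of 309 mouse cells held one (0.344% and 0.971%). The share in human cells was above the background in each Drop-seq library, with intervals that did not overlap. Cells were called human by their share of human counts, so a higher share of them with a human gene is largely built in. This holds for the single genes below too. Per human count at 25 cycles, human cells had 2777 CPM (2481 to 3098) and mouse cells 4285 CPM (3314 to 5451). At 30 and 35 cycles the human and mouse intervals overlapped.

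**Figure D2:**
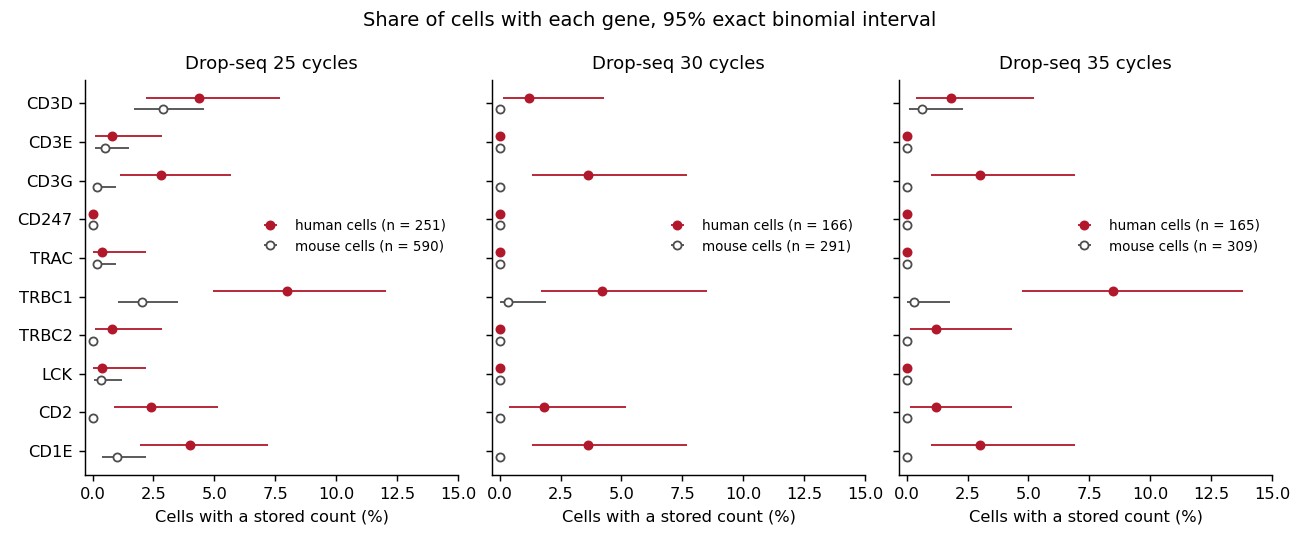
Share of human cells (filled) and mouse cells (open) with a stored count of each gene in the 3 Drop-seq libraries, with the 95% exact binomial interval, none drawn at 0. CD3G, TRBC1 and CD1E lie higher in human than in mouse cells of every library, while CD3D at 25 cycles lies at 4.38% against 2.88% in mouse cells.

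Among the CD3 chains, CD3G and CD3D were found in every Drop-seq library and CD247 in human cells of none. CD3G, the gamma chain of the complex, had 102 counts in 7 human cells at 25 cycles, 73 in 6 at 30 cycles and 69 in 5 at 35 cycles. These are levels of 885 CPM (722 to 1074), 1087 CPM (852 to 1367) and 738 CPM (574 to 934). They are sums over transcripts, in which a molecule may be counted more than once. With the highest transcript alone the CD3G level at 25 cycles was 433.9 CPM, below the interval given. At 25 cycles 65 of the 102 counts (63.7%) lay in 1 cell and the other 6 cells shared 37. Over the 342 genes with a total within 2-fold of its own, the median share in the top cell was 39.7%, with quartiles of 26.1% and 62.8%. Those genes lay in a median of 8 cells, with quartiles of 4 and 14, beside 7 for CD3G. The top CD3G cell held 30.1% of its counts at 30 cycles and 39.1% at 35 cycles. In mouse cells CD3G had 2 counts in 1 cell at 25 cycles and none at 30 and 35 cycles.

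CD3D, the delta chain, was spread more thinly. Its 34 counts at 25 cycles lay in 11 human cells, at 1 to 10 per cell, whereas it had 9 counts in 2 cells at 30 cycles and 17 in 3 cells at 35 cycles. The 11 cells are 4.38% (2.21% to 7.71%), and 17 mouse cells are 2.88% (1.69% to 4.57%), so the share of human cells did not exceed the background beyond counting error. CD3E, the epsilon chain, had 9 counts in 2 human cells at 25 cycles and none in human cells of the other libraries, although 57 barcodes of the 25-cycle library held it. The 2 cells are 0.797%, beside 0.508% of mouse cells, and this too was not above background. CD247, the zeta chain, had no count in 251 human cells of a median 271 counts. Taken as 3 cells, a 0 allows a share with a UMI of up to 1.20%, which does not limit how many cells express the gene. It had 9 counts in 3 of the remaining barcodes.

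CD3D, CD3E and CD3G lie side by side on chromosome 11 (hg38), between 118304730 and 118355161, and CD247 lies on chromosome 1. Their counts came from known isoforms. CD3D was read almost entirely as ENST00000300692, with 33 of 34 counts at 25 cycles. CD3G was split evenly between the protein-coding ENST00000532917, with 50, 35 and 34 counts at 25, 30 and 35 cycles, and ENST00000292144, annotated for nonsense-mediated decay, with 50, 32 and 35. These transcripts have 1345 exon bases in common, which is 88.2% of the second. In 68 of the 73 barcodes with more than 1 CD3G transcript at 25 cycles the stored values were equal, and for CD3E this was so in 50 of 50. The sum over transcripts may therefore count a molecule more than once, and with the highest transcript alone the summed level of the 10 genes was 1788, 2100.0 and 1829 CPM at 25, 30 and 35 cycles.

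The receptor constant genes were dominated by TRBC1, the first of a pair of beta chain constant genes that lie close together on chromosome 7. TRBC1 (142791694 to 142793368) and TRBC2 (142801041 to 142802748) are near copies in exons 1 to 3, alike at 96.7% of 512 bases. Reads that cover only these exons could be split between them. Exon 4, of 248 and 246 bases, was not aligned, so how far it tells the genes apart is not given. The third exon, read from GENCODE transcripts on hg38 (plus strand), carries 8 of the 17 differences of exons 1 to 3, shown in capitals. The lines cover chr7:142792692-142792798 and chr7:142802105-142802211.
TRBC1: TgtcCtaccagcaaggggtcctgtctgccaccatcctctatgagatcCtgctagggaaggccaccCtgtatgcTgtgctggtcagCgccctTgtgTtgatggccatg
TRBC2: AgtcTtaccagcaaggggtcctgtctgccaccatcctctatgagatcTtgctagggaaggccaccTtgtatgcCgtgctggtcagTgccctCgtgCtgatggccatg

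TRBC1 was found in more human cells than any other of the 10 genes at each Drop-seq cycle number, though at 30 cycles by 1 cell. It had 74 counts in 20 human cells at 25 cycles (7.97%, 4.93% to 12.0%), 50 in 7 at 30 cycles (4.22%, 1.71% to 8.50%) and 64 in 14 at 35 cycles (8.48%, 4.72% to 13.8%). Per cell it ran from 1 to 20 counts at 25 cycles and from 3 to 9 at 35 cycles. Mouse cells held it in 12 of 590 (2.03%, 1.06% to 3.53%), 1 of 291 and 1 of 309, below the human share with intervals apart at 25 and 35 cycles.

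TRBC2 had 3 counts in 2 human cells at 25 cycles, none at 30 cycles and 9 in 2 cells at 35 cycles. Of the 323970 barcodes of the 25-cycle library 476 held TRBC1 and 28 held TRBC2, at 30 cycles 23 and 1 did, and at 35 cycles 47 and 6, with 0 in common each time. Independent detection would give 0.0411 barcodes in common at 25 cycles and fewer at 30 and 35 cycles, so these numbers cannot show that the pair avoid each other. TRAC, the alpha constant gene on chromosome 14, had 3 counts in 1 human cell and 17 counts in 12 barcodes of the 25-cycle library, and none in the other libraries.

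The variable segment read with TRBC1 was TRBV12-3. It had 18 counts in 11 human cells at 25 cycles, 7 in 2 cells at 30 cycles and 25 in 7 cells at 35 cycles. A variable and a constant segment of one receptor lie on the same mRNA, and both were stored together almost without exception. Of the 198 barcodes with TRBV12-3 at 25 cycles, 197 also held TRBC1, and in 194 of these the values were equal. At 30 cycles it was 9 of 9 barcodes, 7 with equal values, and at 35 cycles 19 of 20, 14 with equal values. Read the other way, 41.4%, 39.1% and 40.4% of TRBC1 barcodes held TRBV12-3.

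Its neighbour TRBV12-4 was found in 34 barcodes at 25 cycles and the joining segment TRBJ1-3 in 42, of which 34 and 41 also held TRBC1. TRBV12-4 differs from TRBV12-3 at 9 of 347 coding bases (97.4% alike), so reads can be placed on either. All 6 differences of the second exon fall in its first 120 bases and are in capitals here (hg38, plus strand), in chr7:142560634-142560753 and chr7:142563948-142564067.
TRBV12-3: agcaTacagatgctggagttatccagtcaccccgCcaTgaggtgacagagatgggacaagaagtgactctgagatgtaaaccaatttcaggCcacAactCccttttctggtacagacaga
TRBV12-4: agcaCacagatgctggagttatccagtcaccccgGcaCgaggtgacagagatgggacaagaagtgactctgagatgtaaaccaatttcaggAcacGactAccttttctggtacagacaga

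The alpha segments TRAV8-4 and TRAJ3 were each stored in 1 human cell at 25 cycles, with 3 and 1 counts. As background, the receptor of Jurkat cells is known to use TRBV12-3 and TRAV8-4. In human cells of 10X at 30 cycles the stored receptor segments were of the gamma chain, TRGV2 with 8 counts and TRGV4 with 2.

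LCK, the kinase that starts receptor signalling, was near its detection limit. It had 2 counts in 1 human cell at 25 cycles and 5 counts in 2 mouse cells, and none in cells of either kind at 30 and 35 cycles. Over all barcodes of the 25-cycle library it had 116 counts in 39 barcodes, with ENST00000336890 the leading transcript at 48 counts.

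CD2, the adhesion receptor on chromosome 1, was stored in 6 human cells at 25 cycles with 17 counts, in 3 at 30 cycles with 16 and in 2 at 35 cycles with 10. No mouse cell held it in any library. All but 1 of these counts were on the full-length ENST00000369478.

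CD1E was stored in human cells of each Drop-seq library. It had 76 counts in 10 cells at 25 cycles (659 CPM, 520 to 825), 82 in 6 at 30 cycles (1221 CPM, 971 to 1516) and 119 in 5 at 35 cycles (1273 CPM, 1054 to 1523). Its counts per cell reached 25, 31 and 52. These are sums over transcripts, and a molecule may be counted more than once. In 160 of 176 barcodes with more than 1 CD1E transcript at 25 cycles the stored values were equal. At 30 cycles this was so in 9 of 15 and at 35 cycles in 9 of 17. With the highest transcript alone the CD1E level at 25 cycles was 199.6 CPM, below the interval given. In mouse cells it had 20 counts in 6 cells at 25 cycles (1.02%, 0.374% to 2.20%, beside 3.98%, 1.93% to 7.20% in human cells) and none at 30 and 35 cycles. The transcript with most counts was ENST00000368167 (22, 31 and 33), followed by ENST00000444681 (19, 25 and 32), and 8 CD1E transcripts had counts in human cells at 25 cycles. CD1A, its relative and a marker of immature thymocytes, had 23, 11 and 14 counts, and CD1B, CD1C and CD1D had none in human cells of any library.

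Other genes of T cell identity and receptor signalling were partly present. Of 37 such genes 13, 9 and 11 were stored in Drop-seq human cells at 25, 30 and 35 cycles, with summed levels of 3219, 2368 and 2107 CPM, beside 6 and 8 genes and levels of 271.7 and 220.8 CPM in 10X. CD99, a surface protein of leukocytes, and PTPRC, the CD45 phosphatase that activates LCK, led at 25 cycles with 1041 and 850.4 CPM. Of the 98 PTPRC counts 64 lay in 1 cell. Both genes also led at 30 cycles, with 536.2 and 759.6 CPM, and at 35 cycles, with 374.3 and 566.9 CPM. A large part of the Drop-seq sum thus comes from this pair, and it is not a level of T cell markers alone. The transcription factor LEF1 had 40 counts in 6 cells at 25 cycles but none in human cells at 30 cycles. SH2D1A, an adaptor of T and NK cells, had 33 in 6 at 25 cycles. CD7 had 33 counts in 3 human cells but 65 in 14 mouse cells, and was thus not above background. CD4, CD5, CD6, CD8A, CD8B and the delta and gamma constant genes TRDC, TRGC1 and TRGC2 had no count in human cells of any library. The same held for ZAP70, PTCRA, PRKCQ, SIT1 and UBASH3A, while ZAP70 had 13 counts in 5 mouse cells at 25 cycles. LAT, FYN, CD28, THEMIS, TRAT1 and PTPN22 had none in human cells of the Drop-seq libraries, but each had counts in human cells of 10X. VAV1 led this list in 10X, with 26 counts at 30 cycles and 24 at 35 cycles, in 4 human cells each. It had no count in Drop-seq human cells. Markers of other cells were few in Drop-seq, where KLRD1 of NK cells had 22 counts in 4 human cells at 25 cycles. The B cell list had 0, 5 and 9 counts in Drop-seq at 25, 30 and 35 cycles, and the myeloid and epithelial lists had none there. In 10X KLRD1 was more frequent, with 372 counts in 86 human cells at 30 cycles (2297 CPM) and 244 in 57 at 35 cycles (1224 CPM).

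Cells with both a T cell and a plasma cell gene could hardly be counted, because Drop-seq cells held few plasma cell genes and 10X cells no T cell gene. In the 25-cycle library 52 cells held only a gene of the first kind, 2 only a plasma cell or immunoglobulin gene and 1 both. At 30 and 35 cycles no Drop-seq cell held both, and in 10X the numbers with only the second kind were 848 of 1006 and 892 of 911. The leading immunoglobulin gene in 10X was IGLL5, whose reads overlap with those of IGLC1 and may be shared between them.

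In the 25-cycle library the genes were rarely found together in a cell. Of 53 human cells with any of them, 46 held 1 gene, 7 held 2 and none held 3. If each gene had been detected independently at its own rate, 5.19 cells with 2 or more would have been counted. In mouse cells of this library 4 held 2 or more, 1 of them 3 or more, where independence gives 1.06. Thinned to 200 counts, no mouse cell did (0.14 expected). The 7 human cells had a median of 927 counts, with a range of 236 to 3463. The median was 368 for all human cells with a T cell gene and 252 for those without. The cells with 236 and 368 counts both held TRBC1 and CD2.

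Of 45 pairs of genes 36 had both genes stored in human cells, and 5 pairs were seen together. TRBC1 and CD2 shared 3 cells, where independence gives 0.478 (phi 0.24, a correlation of presence and absence over 251 cells that share library and depth). CD3D with CD3G, CD3E with TRBC2, TRBC1 with CD1E, and CD1E with CD2 shared 1 cell each. TRBC1 was not seen with CD3D (expected 0.876) or CD3G (expected 0.558), numbers too small at this depth to show that the genes avoid each other. After thinning to 200 counts TRBC1 and CD2 shared 1 cell (0.231 expected, phi 0.13), and 4 of 173 human cells held 2 or more, with 2.91 expected.

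The genes lay mostly in cells of lower purity at 25 cycles. The 130 human cells with 90% to 95% human counts held 275 of the 320 counts, a level of 4003 CPM (3544 to 4505), and 35 of them (26.9%) had a T cell gene. The 121 cells with 95% or more human counts held 45 counts, 967 CPM (705 to 1294), in 18 cells (14.9%), and 2 of the 7 cells with a pair. Their median depths were 337 and 229 counts. At 30 and 35 cycles 155 of 166 and 152 of 165 human cells had 95% or more human counts, and these held 230 of 230 and 284 of 288 counts. The part of purity in the 25-cycle level was not tested.

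**Figure D3:**
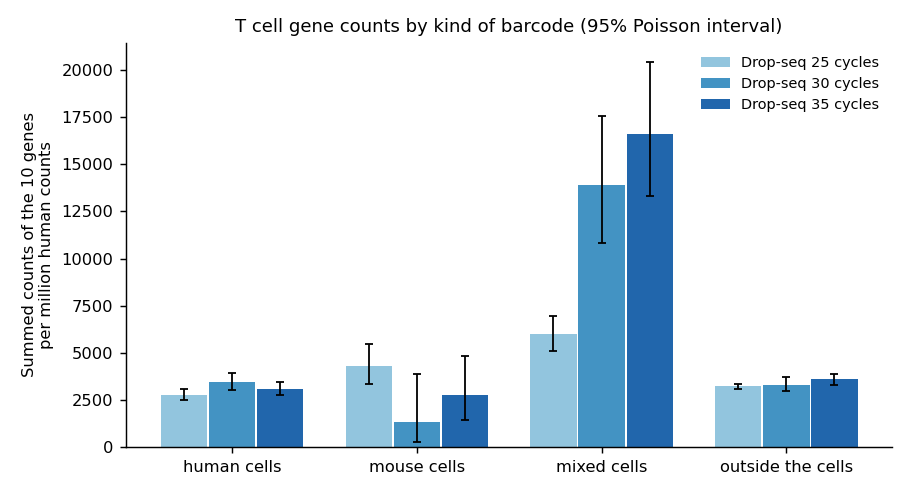
Summed level of the 10 genes, in CPM of the human counts, in human cells, mouse cells, mixed cells (between 10% and 90% human counts) and barcodes outside the cells, with 95% Poisson intervals, for the 3 Drop-seq libraries. Mixed cells stand highest, at 5985, 13881 and 16585, from only 22, 6 and 5 barcodes with one of the genes. Barcodes outside the cells stand near the human cells.

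Relative to the human RNA in a barcode, the genes were not richer in human cells than in other barcodes beyond counting error. Barcodes outside the cells had 3216, 3311 and 3580.1 CPM at 25, 30 and 35 cycles, beside 2777, 3425 and 3080.2 in human cells. Mouse cells had 4285, 1329 and 2767, the last 2 from 3 and 12 counts. Mixed cells had 5985, 13881 and 16585, in which CD1E made up 59 of 164, 48 of 70 and 54 of 88 counts. These counts lay in 22 of 159, 6 of 43 and 5 of 26 mixed cells. The Poisson intervals do not allow for counts gathered in few barcodes. Of the counts of the T cell genes, 78.6%, 51.5% and 60.4% lay outside the cells. Of all counts, human and mouse together, 76.3%, 51.6% and 56.3% did, which is not the share for human counts alone.

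Barcodes that held one of the 10 genes in a Drop-seq library often held one, the same or another, in a second library. Of 145 barcodes that were human cells at both 30 and 35 cycles, 19 held one of the 10 genes in both, 2 only at 30 cycles, 8 only at 35 cycles and 116 in neither. Between 25 and 30 cycles 18 of 135 held one in both, 18 only at 25 cycles and 1 only at 30 cycles. By gene in these 135, CD3G and CD2 were each in both in 3 barcodes and only at 25 cycles in 1. CD1E was in both in 5 and only at 25 cycles in 4. For TRBC1 the numbers were 5 and 6, and for CD3D 2 and 6. No barcode held CD3E, TRBC2 or TRAC at both. The barcode with most CD3G had 65, 22 and 27 counts at 25, 30 and 35 cycles, and the next had 21, 16 and 14. For CD1E the leading barcode had 24, 31 and 52 counts, and for CD2 it had 7 in each library. The 20 TRBC1 counts of its leading barcode at 25 cycles stood beside 6 and 3 at 30 and 35 cycles.

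**Figure D4:**
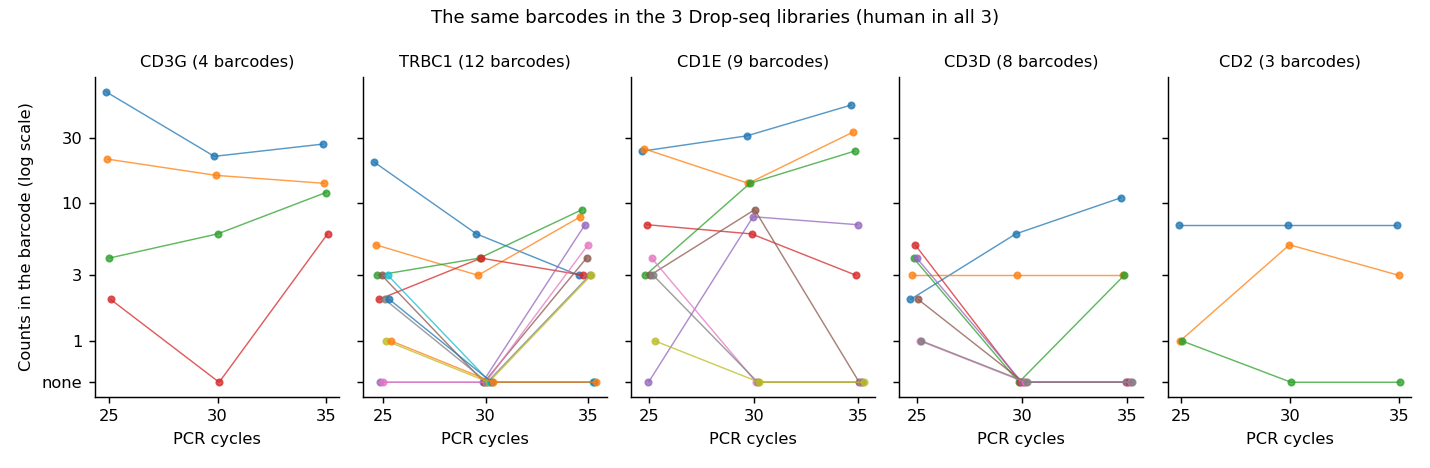
Counts of CD3G, TRBC1, CD1E, CD3D and CD2 in each of the 119 barcodes that were human cells in all 3 Drop-seq libraries and held the gene in at least 1, on a log axis, with a line per barcode; "none" marks no stored value, which means under 1 count at 25 cycles and under 3 at 30 and 35 cycles. The barcodes highest at 25 cycles for CD3G and CD1E stay among the highest at 35 cycles, and many of the 12 TRBC1 barcodes have no value at 30 cycles.

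PCR cycles were compared between the Drop-seq libraries of 30 and 35 cycles, which store values from the same minimum. The summed genes differed by -0.15 on the log2 scale, 35 minus 30 cycles (-0.41 to 0.10), where the median of 1443 human genes with at least 20 counts over both was -0.06. CD1E differed by 0.06 (-0.36 to 0.48), TRBC1 by -0.12 (-0.68 to 0.44), CD3D by 0.44 (-0.81 to 1.79) and CD3G by -0.56 (-1.06 to -0.06). CD2 differed by -1.16 (-2.46 to 0.07), from 16 and 10 counts, and was the only one of the 5 past 2-fold, where 8.39% of the tested genes were that much lower and 9.08% that much higher. When every barcode with at least 100 counts was taken as a cell, the CD2 ratio became 1.02, so its direction rests on which cells are counted. The libraries share most of their cells, which the intervals do not allow for. In the 145 barcodes that were human in both, CD2 had 12 and 10 counts (ratio 0.601, not past 2-fold) and CD3G 65 and 69 (ratio 0.765).

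The 10X libraries differed from Drop-seq in having none of the 10 genes. At 30 cycles, with values below 3 left out, CD3G, TRBC1 and CD1E had 20 counts or more in Drop-seq and none in 10X, 3 of 3 tested. This was the rule more than the exception, since 74.9% of 722 human genes with 20 counts in Drop-seq human cells had none in 10X human cells. A stricter comparison asked which genes with 20 counts in human cells at 25 cycles were in no barcode of either 10X library. Of 1008 genes 10.3% were, and of the 10 genes 4 of 4 tested were, namely CD3D, CD3G, TRBC1 and CD1E. The genes tested there were few, and the capture system, the smallest stored value, the mixing ratio and the cells used cannot be told apart. Only genes with 20 counts in Drop-seq were tested, and the 10 genes were chosen with earlier results of these data known. The 3 of 3 and 4 of 4 are therefore a description and no support for a trait of these genes. No fold is given, because low values are missing from the tables.

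Genes whose level followed theirs most closely over the 5 libraries were found among 1616 human genes by the root mean square difference of centred log2(CPM + 1). They were CTSG, IL32 and PAK4 for CD3G (0.14 to 0.16), NEDD1, ZNF33A and RPAIN for CD1E (0.15 to 0.29), and DHX29, CTSG and MRPL11 for TRBC1 (0.12 to 0.16). Each of these had no stored count in 10X human cells, and the likeness over 5 points that share cells is a description only. CTSG, a serine protease of myeloid granules, came out near both CD3G and TRBC1, with 807, 834 and 642 CPM at 25, 30 and 35 cycles.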

How the data were processed

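The authors deposited, for 5 of the 6 samples, a matrix of UMI counts per transcript and barcode. Per the study's methods reads were base called with Guppy and aligned with minimap2, and 10X UMIs were counted with UMI-tools; for Drop-seq UMI-tools and a homotrimer method are both described, and which one made these files is not given in the sources used here. The labels give the build hg38. Transcripts were named from GENCODE release 44 on hg38 (42740 of 46484 human transcripts, 91.9%), version numbers dropped. The counts of a gene were summed over its transcripts within a barcode, all stored values kept. They were not divided by length, so levels are not ranked between genes. The 10 genes, the marker lists and the alternatives were chosen with earlier results of these data known. List genes were named mainly where among the 3 highest of their list in a library or where a defining gene was at 0, and not all such genes are named. Transcripts were named where they held the most or second most counts. Intervals (95%) are exact: Clopper-Pearson for shares, Poisson for levels, and conditional binomial for ratios of 2 levels. Doublets were not called, but cells with 10% to 90% human counts were set apart as mixed, 159, 43 and 26 in Drop-seq at 25, 30 and 35 cycles. Total counts per library ran from 494147 to 2311090. Ratios needed at least 20 counts over both libraries and a 2-fold rule of size. Python 3.11.15, numpy 2.4.6, pandas 2.3.3 and scipy 1.17.1 were used.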

Additional observations from a re-analysis of the deposited data

Results flagged for a closer look

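Counts of the 10 T cell genes also lay in barcodes that no comparison of human cells used, above the 3 counts taken as the limit that a count of 0 allows. Barcodes outside the cells held 2015 such counts in the Drop-seq library of 25 cycles, 322 at 30 cycles and 593 at 35 cycles. Mixed cells held 164, 70 and 88. No explanation was tested.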

How the results depend on the processing

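No paired analysis was possible because each group has 1 library and the labels give no replicate numbers; barcodes that libraries share were set side by side as a description only. Of 153 values of the main results under the alternatives, 129 moved by less than the counting interval (or 1.5-fold for a number of cells or genes), 22 fell and 2 rose. The 129 include the shares and levels in 10X, which could not move because no transcript of these genes is listed there. Without any test between libraries these say only how far a value moves. The share of human cells with a T cell gene at 25 cycles was 28.6% with the number of cells halved, 14.9% at 95% purity, 8.50% with values below 3 left out and cells picked again (306 in place of 251), 8.76% with the cells kept as reported, and 10.8% thinned to 100 counts. The summed level at 25 cycles was 967 CPM at 95% purity, 3190.0 with values below 3 left out, 1788 with the highest transcript, 2117 without CD1E and 1562 without the cell with most counts of each gene, which, like keeping the cells as reported, was chosen after seeing the data. At 30 cycles these last 3 gave 2100.0, 2204 and 2204 CPM and at 35 cycles 1829, 1808 and 1893. Of 7 human cells with 2 or more genes, 2 were left at 95% purity, 1 with values below 3 left out (1 also with the cells kept as reported), 2, 4 and 2 thinned to 100, 200 and 400 counts, and 4 without the top cells. With a minimum of 100 counts, 0 of the genes passed the test for presence in Drop-seq at 30 cycles and no count in 10X, beside 3 at 20. The 35 over 30 cycle ratio of CD2 turned from 0.449 to 1.02 when every barcode with at least 100 counts was a cell. Of 733 values for single genes in Drop-seq 659 moved by less than the interval. The depth of the cells, a median of 243 to 352 counts in Drop-seq human cells, limits every share.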
